A study of Homo sapiens with 12 samples.

Results

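The cytosolic ribosomal protein genes were taken as the symbols of the array's gene annotation that read RPL or RPS followed by digits and at most 1 letter A or X, with RPLP0, RPLP1, RPLP2 and RPSA added. The annotation held 67 such symbols, and 52 of them had at least 1 probe set listed for that symbol alone. These 52 genes, 32 of the large and 20 of the small ribosomal subunit, are described here, out of 19775 genes with such a probe set. Where a gene had several, the brightest one on average stood for it. The other 15 symbols stood only on probe sets listed for several genes, 13 of them beside a small nucleolar RNA, and were not measured by this rule: RPL10, RPL13, RPL13A, RPL17, RPL21, RPL23, RPL28, RPL4, RPL5, RPL7A, RPS13, RPS2, RPS20, RPS26 and RPS3A. RPLP0 and RPSA were not analysed here.

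The series asks what changes when BCL6, the repressor that drives the germinal centre programme of B cells, is knocked down in diffuse large B-cell lymphoma lines. Total RNA was hybridised to 12 Affymetrix U133 Plus 2.0 arrays, in 4 groups of 3: Pfeiffer cells with BCL6 siRNA, Pfeiffer cells with a non-target control, OCI-Ly7 cells with BCL6 siRNA and OCI-Ly7 cells with a non-target control. Both are established human lymphoma lines grown in IMDM with serum, transfected transiently and taken at 48 h. The Pfeiffer controls are titled as shRNA, while their descriptions name siRNA, and no oligonucleotide sequence is given. Whether the 3 arrays of a group are separate cultures is not stated, so the p-values rest on a spread that may be technical. In bulk RNA, fewer cells of a kind and less RNA per cell cannot be told apart.

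Ribosomal proteins bind the ribosomal RNAs to form the small subunit, which decodes the message, and the large subunit, which joins amino acids and carries the exit tunnel and the stalk that recruits translation factors. Their messages are among the most abundant of dividing cells and share a tract of pyrimidines at the very start of the RNA, the 5′ TOP, through which mTOR and LARP1 control their translation together. MYC raises transcription of many of these genes in B-cell lymphoma. Free RPL5 and RPL11 also bind MDM2 and so stabilise p53 when ribosome assembly fails.

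The TOP tract is shown at annotated start sites of genes called lower in control cells of Pfeiffer than of OCI-Ly7 under the scaling used here and 3 others, as given further on. Of these 6 genes, 5 have a single annotated start and are printed, with 30 bases before the start and 20 from it, from RefSeq on GRCh38.p14. Capitals mark the unbroken run of C and T that begins with the C at the start.
RPS12, chr6:132814539-132814588, plus strand: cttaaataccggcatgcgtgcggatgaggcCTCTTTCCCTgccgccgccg
RPL18, chr19:48619159-48619208, minus strand: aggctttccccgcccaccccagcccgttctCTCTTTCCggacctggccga
RPL27A, chr11:8682762-8682811, plus strand: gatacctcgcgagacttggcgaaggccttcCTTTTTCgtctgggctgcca
RPL12, chr9:127451387-127451436, minus strand: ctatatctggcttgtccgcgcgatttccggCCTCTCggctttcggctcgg
RPS21, chr20:62387073-62387122, plus strand: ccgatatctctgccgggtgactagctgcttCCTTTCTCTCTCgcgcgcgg
The run is 10 bases long in RPS12, 8 in RPL18, 7 in RPL27A, 6 in RPL12 and 12 in RPS21.

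RefSeq promoter windows were found for 46 of the 52 genes. A C followed by 4 pyrimidines stood exactly at an annotated start in 34 of these 46 (73.9%), against 1404 of 27305 genes of the promoter table (5.14%). Allowing the tract to begin within 5 bases of the start gave 40 of 46 (87%), against 25.2% of all genes. The BCL6 motif TTCCTAGAA, searched on both strands from 250 bases before to 50 after the start, was in 0 of the 46 windows and in 0.472% of all windows counted by gene. CACGTG, the E-box bound by MYC and MAX, was in 3 of 46 (6.52%), against 8.77% of all genes. A match or its absence describes only the letters of these windows.

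All values are log2(signal + 16), and a fold change is on this scale, which understates changes of dim probe sets. Of the 52 genes 47 had a mean of 15 or above, on arrays whose single brightest probe set read 15.82 to 16.27. RPS23, a protein of the decoding site, was the brightest at 15.92, followed by RPS6 (15.85), RPS19 (15.84), RPS16 (15.83) and RPL39 (15.81). Levels of different probe sets cannot be ranked as amounts of RNA, and these values serve only to show where on the array's range the genes lie. The whole array carried 214 probe sets at 15 or above, and 65 of them belonged to a ribosomal protein gene alone. Scanner saturation is not flagged in the deposited values, so whether any of these signals was capped was not tested.

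At the other end stood RPL36 at 14.70 and RPL14 at 14.99, then RPL27A at 10.01, the stalk protein gene RPLP2 at 7.83 and RPL36A at 7.26. Each of the last 3 also appears on a brighter probe set that lists a second symbol and was left out by the rule. That shared probe set read 15.73 for RPL27A, 15.64 for RPLP2 and 15.66 for RPL36A. The values of RPL27A, RPLP2 and RPL36A used here are thus those of a dimmer probe set, and RPL36A fell below the filter level of 7.91 and was not tested.

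Probe sets named with _x_at may bind several transcripts, and those named with _s_at several transcripts of a family, which matters for genes with many processed pseudogenes. Of the chosen probe sets 13 were of the first kind, 28 of the second and 11 of neither. For 7 genes no other kind than _x_at existed. Median changes with BCL6 siRNA in Pfeiffer were 0.13 for 13 genes on _x_at, 0.14 for 28 on _s_at and 0.13 for 10 on other probe sets. An unadjusted p under 0.05 was reached by 4 of the 13, 6 of the 28 and 6 of the 10, and a difference between the kinds was not tested.

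BCL6 itself read 13.11, 13.04 and 12.75 with BCL6 siRNA in Pfeiffer, against 13.86, 13.92 and 14.01 in control, a change of -0.96 ± 0.08 (SE; limma adjusted p = 5.31e-07). In OCI-Ly7 it read 13.13, 13.10 and 13.15 with BCL6 siRNA, against 13.50, 13.57 and 13.59 in control, a change of -0.42 ± 0.08 (adjusted p = 0.00731). In both lines every siRNA array read below every control array, so the labels held for the targeted gene. Of 6 B-cell markers 5 were measured, between 7.91 and 14.70 on single arrays. Of these, 4 fell with BCL6 siRNA in Pfeiffer and 2 rose in OCI-Ly7, with summed levels of 56.95 to 57.43 with siRNA, against 59.76 to 60.19 in control, in Pfeiffer, and of 66.06 to 66.36 with siRNA, against 64.85 to 64.98 in control, in OCI-Ly7. All 11 measured T, NK and myeloid markers were too dim to be tested, at 7.58 or below on every array. EPCAM, an epithelial adhesion gene, averaged 14.06 in Pfeiffer control and 5.00 in OCI-Ly7 control. Pearson correlations over all probe sets were 0.916 to 0.924 within groups and 0.824 to 0.833 between lines. The 3′ minus 5′ difference of ACTB was 0.388 on Pfeiffer siRNA replicate 3, against 0.109 to 0.308 on the other arrays. The part of these differences in the results below was not tested.

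With BCL6 siRNA, none of the 51 tested ribosomal protein genes passed the test in Pfeiffer, where 16.2% of all 9888 tested genes did (limma, adjusted p under 0.05). At an unadjusted p under 0.05, 16 of the 51 were higher and 0 lower, against 14.2% of all genes that were higher. All 51 changes were above 0, from 0.03 to 0.41, with a median of 0.13, while the median over all tested genes was 0.00. The 32 other genes with a mean of 15 or above had the same median of 0.13, and 4 of them passed the test as higher. The direction depended on the scaling. With arrays centred on the median of tested genes 51 changes were above and 0 below 0 (median 0.14), under cyclic loess 46 and 5 (median 0.08), and under quantile normalization 27 and 24 (median 0.005).

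RPL35 and RPL30 came closest to the threshold, with RPL23A, and are named here after their values were seen. RPL35, which lies beside the tunnel exit, read 15.26, 15.21 and 15.32 with BCL6 siRNA in Pfeiffer, against 15.08, 15.05 and 15.17 in control. The change was 0.16 ± 0.06 (SE), with an adjusted p of 0.0625. Its siRNA arrays all read above its control arrays, which held for 4 of the 51 genes (RPL18, RPL35, RPLP2 and RPS4X), against 16% of all tested genes. RPL23A, the docking protein for the signal recognition particle at the tunnel exit, read 15.61, 15.53 and 15.72 with siRNA, against 15.35, 15.31 and 15.54 in control (change 0.22 ± 0.08, adjusted p = 0.0811). Here the third control array lay within the siRNA arrays. RPL30 changed by 0.18 ± 0.07 (adjusted p = 0.0792). Without Pfeiffer control replicate 3, RPL23A, RPL30 and RPL35 passed the test as higher, and so did RPL30 alone without Pfeiffer siRNA replicate 2 and RPL35 alone without OCI-Ly7 siRNA replicate 2.

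Some members have known roles outside bulk translation. RPL11 changed by 0.10 ± 0.07 in Pfeiffer (adjusted p = 0.40). RPS6, the substrate of the S6 kinases, changed by 0.13 ± 0.09 (adjusted p = 0.367). RPS19, the gene most often mutated in Diamond-Blackfan anaemia, changed by 0.19 ± 0.08 (adjusted p = 0.12). RPS14 (0.17), RPS15 (0.17), RPL22 (0.10) and RPL41 (0.14) did not pass the test either. Whether any of these genes differed from the other members was not tested. Of the stalk proteins, RPLP1 changed by 0.16 ± 0.06 (adjusted p = 0.119). RPLP2, on its dim probe set, read 8.02, 8.08 and 7.77 with siRNA, against 7.52, 7.39 and 7.72 in control (change 0.41 ± 0.18, adjusted p = 0.141). Leaving RPLP2 aside, no member's 95% interval reached beyond 0.39, a fold of 1.31.

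**Figure D1:**
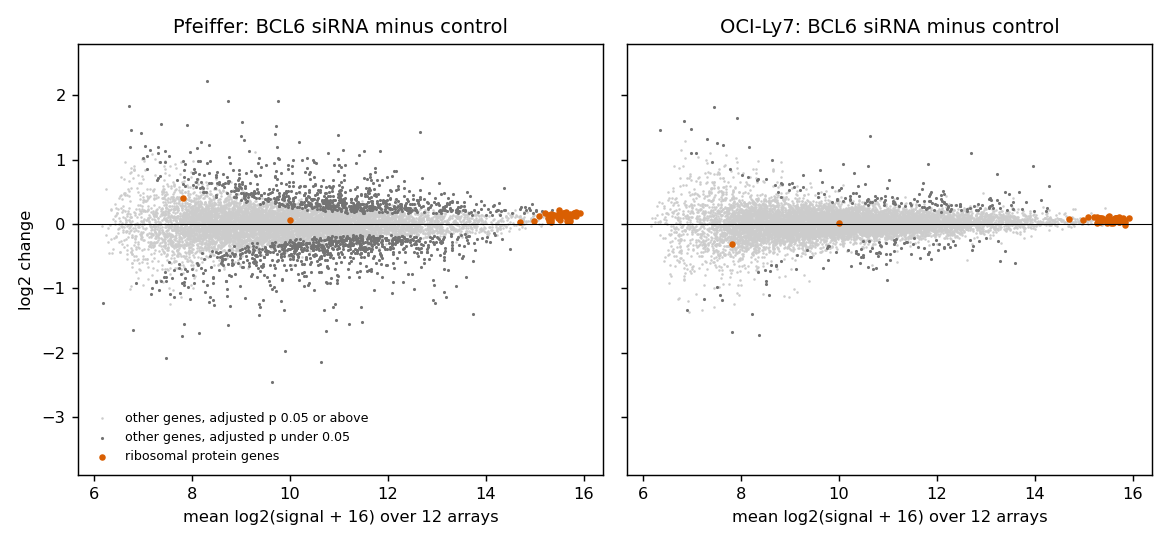
Change with BCL6 siRNA (log2) against the mean log2(signal + 16) over 12 arrays, for Pfeiffer on the left and OCI-Ly7 on the right; grey points are other tested genes, darker where the adjusted p was under 0.05, and orange points are the 51 ribosomal protein genes. Apart from RPL27A and RPLP2, the ribosomal protein genes crowd at the bright end, and 0 of 51 passed the test in either line.

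OCI-Ly7 gave smaller values. No ribosomal protein gene passed the test, against 2.68% of all genes (limma, adjusted p under 0.05), and at an unadjusted p under 0.05 the count was 0 higher and 0 lower, against 9.48% of all genes that were higher. The median change was 0.07, against 0.01 over all tested genes and 0.06 over the 32 other bright genes. The lowest adjusted p was 0.384, for RPL35. Of the 51 changes 49 were above 0, while RPLP2 (-0.31 ± 0.18, adjusted p = 0.451) and RPS6 (-0.02 ± 0.09) were below. In 3 of the 51 genes, RPL36, RPS28 and RPS29, all siRNA arrays read above all control arrays, against 13.4% of all tested genes. Without OCI-Ly7 siRNA replicate 2 the median change was -0.001. With arrays centred on the median of tested genes 44 changes were above and 7 below 0, under quantile normalization 31 and 20, and under cyclic loess 26 and 25.

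The difference between the lines, Pfeiffer change minus OCI-Ly7 change, passed the test for 0 of 51 genes, against 8.8% of all genes (limma, adjusted p under 0.05). At an unadjusted p under 0.05 it was higher for 1 gene, RPLP2 (0.72 ± 0.25, adjusted p = 0.0935), and lower for 0, against 10.2% of all genes that were higher. The median difference was 0.07. For the 50 genes other than RPLP2 the 95% intervals ran between -0.26 and 0.43. Both comparisons of a line enter this difference, and the control arrays of each line also enter the comparison of control cells, so the values are not independent of each other.

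The ribosomal protein genes moved together from array to array. On Pfeiffer control replicate 3 all 51 read above their own group mean, and on Pfeiffer control replicate 2 only 2 did. On OCI-Ly7 siRNA replicate 2, 50 of 51 were above their group mean, and on OCI-Ly7 control replicate 1, 49 were below. The median over the members was 15.61, 15.53 and 15.68 in Pfeiffer siRNA arrays, against 15.43, 15.38 and 15.56 in Pfeiffer control arrays. In OCI-Ly7 it was 15.55, 15.73 and 15.53 in siRNA arrays, against 15.46, 15.56 and 15.64 in control arrays. The siRNA and control arrays overlapped in both lines.

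The median of the 32 other bright genes shifted alike, with 15.48, 15.42 and 15.55 in Pfeiffer siRNA arrays, against 15.29, 15.30 and 15.43 in Pfeiffer control arrays. A member's range over the 12 arrays had a median of 0.37, and of 0.16 once each array's member median was subtracted, with a smaller range in 48 of 51 genes. After quantile normalization the member median differed little between arrays, with group means of 15.54 in Pfeiffer siRNA and 15.54 in Pfeiffer control, and of 15.57 in OCI-Ly7 siRNA and 15.58 in OCI-Ly7 control. That scaling gives every array the same set of values and so fixes the bright end by construction.

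**Figure D2:**
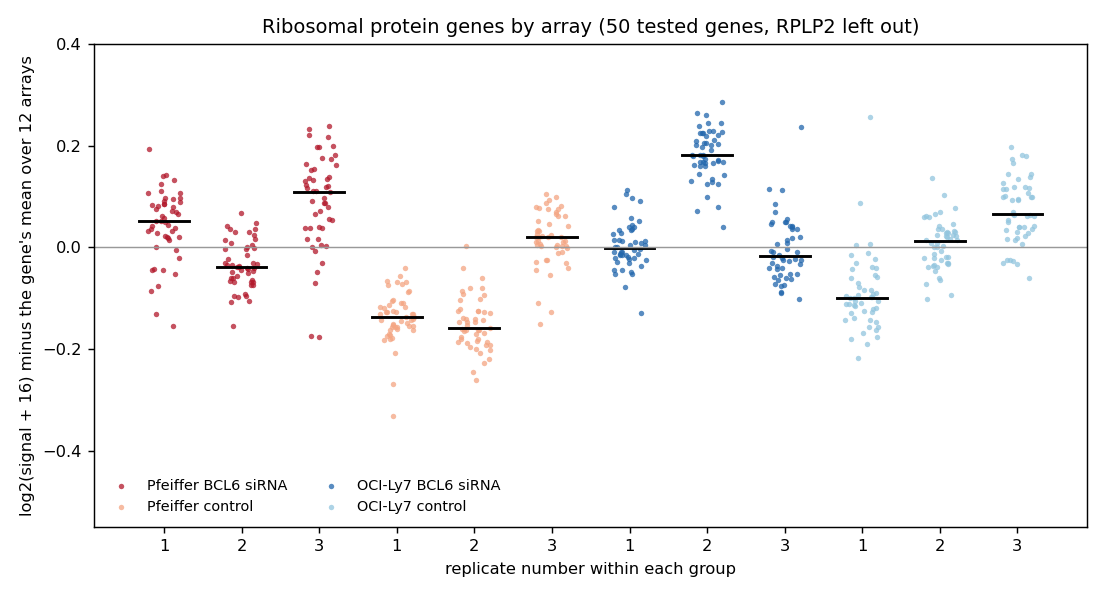
Deviation of each ribosomal protein gene from its own mean over 12 arrays, in log2(signal + 16), by array; each point is 1 of 50 tested genes (RPLP2, with a wider spread, is left out), bars are medians, and colours are the 4 groups. Whole arrays lie high or low, such as OCI-Ly7 siRNA replicate 2 at the top and Pfeiffer control replicates 1 and 2 at the bottom.

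In control cells, 8 of 51 ribosomal protein genes were lower in Pfeiffer than in OCI-Ly7 and 0 were higher (limma, adjusted p under 0.05), against 79.6% of all tested genes that differed either way and 37.1% that were lower. Their share of 15.7% was below that of the array as a whole. Of the 32 other tested genes at 15 or above, 34.4% differed (6 higher and 5 lower, median -0.02). The 8 include RPLP2, which passed the filter only through its mean in OCI-Ly7, so the filter favoured a lower value in Pfeiffer. The median difference of the members was -0.10, against 0.07 over all tested genes. All Pfeiffer control arrays read below all OCI-Ly7 control arrays in 6 of the 51 (RPL11, RPL12, RPL18, RPL27A, RPLP2 and RPS12), against 38.4% of all genes. The split of 0 higher and 8 lower moved to 9 and 11 under quantile normalization and to 0 and 49 under cyclic loess. Of all genes 80.2% and 80.5% differed under these scalings, so under cyclic loess the members' share was above that of all genes.

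RPS12, a small-subunit protein known in fruit flies for its part in cell competition, read 15.45, 15.40 and 15.55 in Pfeiffer control, against 15.74, 15.76 and 15.82 in OCI-Ly7 control. The difference was -0.31 ± 0.06 (SE; adjusted p = 0.000219), a fold of 0.806, and it had the lowest p of the members. RPL18, of the large subunit, read 15.37, 15.36 and 15.40 in Pfeiffer control, against 15.55, 15.61 and 15.75 in OCI-Ly7 control (difference -0.26 ± 0.07, adjusted p = 0.00232). Both genes kept this call under 3 other scalings, but a second, dimmer probe set of RPL18 gave -0.10 (adjusted p = 0.485). The second probe set of RPS12, below the filter level at 5.26 on average, gave -0.27 (adjusted p = 0.6). RPS12 has only _x_at probe sets, and so has RPL12, described next.

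RPL27A, from its dimmer probe set, read 9.68, 9.91 and 9.88 in Pfeiffer control, against 10.27, 10.08 and 10.14 in OCI-Ly7 control (difference -0.34 ± 0.09, adjusted p = 0.0022). RPL12, which forms the base of the stalk, read 15.23, 15.18 and 15.35 in Pfeiffer control, against 15.39, 15.46 and 15.52 in OCI-Ly7 control (difference -0.20 ± 0.06, adjusted p = 0.00925). RPL11 read 15.34, 15.30 and 15.45 in Pfeiffer control, against 15.46, 15.56 and 15.68 in OCI-Ly7 control (difference -0.20 ± 0.07, adjusted p = 0.0174). For these 3 the groups did not overlap, although the gap for RPL11 was under 0.01, and its call was lost without OCI-Ly7 control replicate 3, Pfeiffer control replicate 1 or Pfeiffer control replicate 2.

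RPS21 was lower by -0.16 ± 0.07 (adjusted p = 0.0399) and RPS9 by -0.14 ± 0.06 (adjusted p = 0.0415), with overlapping arrays for both, and these calls were lost in 8 and in 14 of 28 other fits. RPLP2 read 7.52, 7.39 and 7.72 in Pfeiffer control, against 8.31, 8.01 and 7.89 in OCI-Ly7 control (difference -0.52 ± 0.18, adjusted p = 0.0144). Its mean over both treatments was 7.75 in Pfeiffer and 7.91 in OCI-Ly7, so it reached the filter level of 7.91 in OCI-Ly7 alone. Its second probe set, below that level at 5.84 on average, gave 0.44 in the other direction without passing the test, and the call of RPLP2 was lost without OCI-Ly7 control replicate 1 or Pfeiffer control replicate 2. Lower under the scaling used here and under quantile normalization, cyclic loess and centring on the median of tested genes were 6 of the 8: RPL11, RPL12, RPL18, RPL27A, RPS12 and RPS21. Centring each array on the members' median, a setting chosen after seeing the data, ended the calls of RPL27A (-0.24, adjusted p = 0.0858) and RPS21 (-0.06, adjusted p = 0.168).

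**Figure D3:**
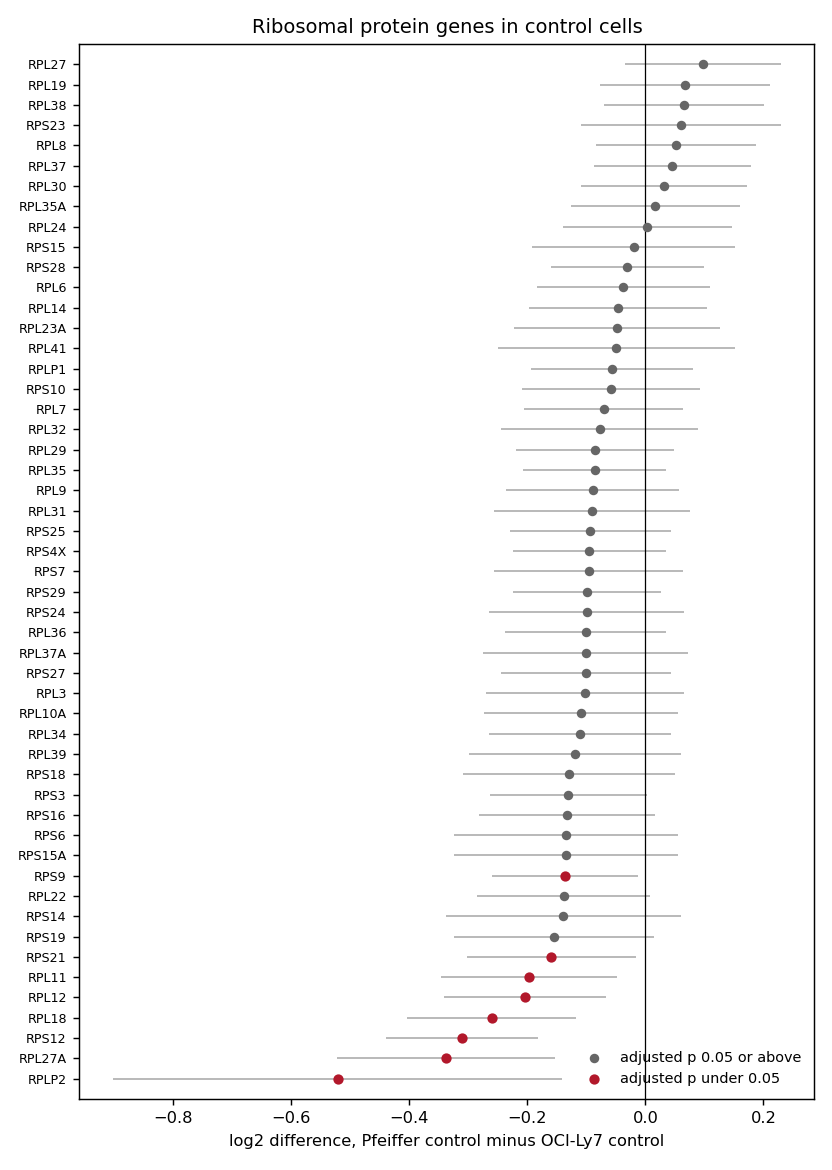
Difference between control cells of the lines, Pfeiffer minus OCI-Ly7 (log2), for the 51 tested ribosomal protein genes; points are limma estimates, lines their 95% intervals, and red points have an adjusted p under 0.05. The 8 red points all lie left of 0, from -0.52 (RPLP2) to -0.14 (RPS9), and the intervals of all other genes cross 0.

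Of the 52 genes 33 had several probe sets, 111 in all, and 91 of these passed the filter on dim signals. A fit over 17659 probe sets placed the called changes of ribosomal protein genes on dimmer probe sets. The 65 member probe sets at 15 or above gave 0 calls in Pfeiffer and 0 in OCI-Ly7. The 22 between the filter level and 13 gave 7 calls in Pfeiffer (3 higher and 4 lower), where 14.7% of all probe sets were called, and 1 in OCI-Ly7 (higher), where 1.94% were. The median size of the change was 0.24 for these 22 and 0.13 for the 65 in Pfeiffer, and 0.13 and 0.07 in OCI-Ly7. The residual SD of tested genes varied with signal. Its median was 0.234 below 9, 0.125 from 9 to 11, 0.084 from 11 to 13 and 0.090 at 15 or above. The part of this spread in these sizes was not tested. Between control cells 16 of the 22 differed (6 higher and 10 lower in Pfeiffer), against 8 of the 65 (all lower) and 78.6% of all probe sets. Among the 16, RPS15A 235309_at (higher) reached the filter level in Pfeiffer alone, and RPLP2 200908_s_at (lower) in OCI-Ly7 alone. The filter thus favoured the direction of these calls. The median size of that difference was 0.36 for the 22 and 0.10 for the 65. Dimmer probe sets can target other transcript forms, or other ends of a transcript, and their positions were not looked up here.

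**Figure D4:**
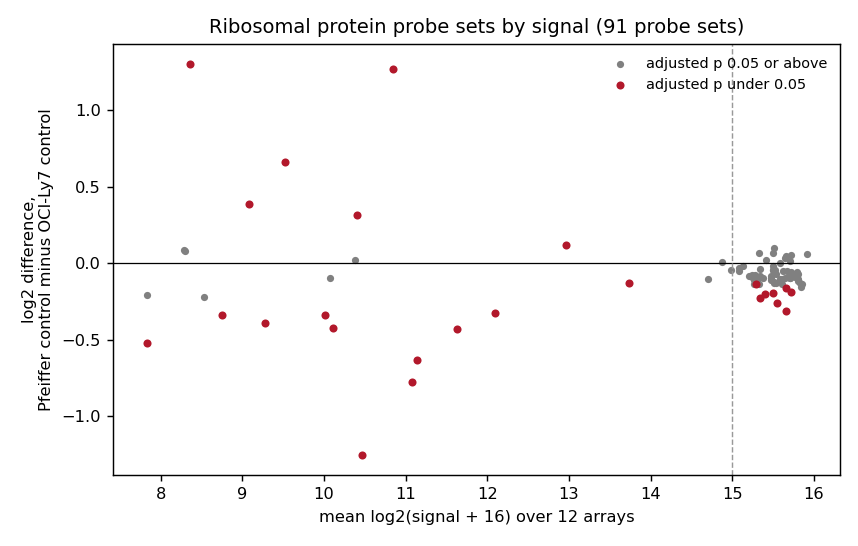
Difference between control cells, Pfeiffer minus OCI-Ly7 (log2), against mean log2(signal + 16) for 91 probe sets listed for 1 ribosomal protein gene; red points have an adjusted p under 0.05 and the dashed line marks 15. To the right of the line differences stay between -0.31 and 0.10, and to its left they reach -1.26 and 1.30. The point at 1.30 is RPS15A 235309_at, which reached the filter level in Pfeiffer alone.

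RPL31, another protein of the tunnel exit, showed a change in OCI-Ly7 on 1 of its 3 probe sets. Its probe set 221593_s_at read 10.53, 10.57 and 10.60 with BCL6 siRNA, against 10.19, 10.06 and 10.23 in control (change 0.41 ± 0.07, adjusted p = 0.00667). The Pfeiffer values of this probe set were 11.25, 11.32 and 11.14 with siRNA, against 11.41, 11.49 and 11.39 in control (change -0.19 ± 0.07, adjusted p = 0.075). The arrays did not overlap in either line, and the difference between the lines was -0.60 ± 0.10 (adjusted p = 0.00145), where 7.72% of all probe sets had a called difference. In control cells it was 1.27 higher in Pfeiffer than in OCI-Ly7. The other 2 probe sets of RPL31, at 15.77 and 10.38, changed by 0.07 and -0.14 in OCI-Ly7 without passing the test.

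RPS15A, of the small subunit, gave the largest change of any member probe set. Probe set 235309_at read 8.10, 8.45 and 8.44 with BCL6 siRNA in Pfeiffer, against 9.43, 9.36 and 9.18 in control (change -0.99 ± 0.17, adjusted p = 0.000865). In OCI-Ly7 it read 8.05, 7.62 and 7.62 with siRNA, against 7.82, 8.06 and 8.18 in control, with overlapping arrays. The brightest probe set of the same gene changed by 0.16 ± 0.09 in Pfeiffer (adjusted p = 0.273).

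RPL38, known in mice for its role in translating Hox messages, rose in Pfeiffer on both of its dimmer probe sets. On 202028_s_at it read 11.81, 11.69 and 11.54 with BCL6 siRNA, against 11.27, 11.46 and 11.24 in control (change 0.36 ± 0.10, adjusted p = 0.0227). On 221943_x_at it read 11.54, 11.05 and 10.81 with siRNA, against 10.57, 10.71 and 10.69 in control (change 0.48 ± 0.13, adjusted p = 0.0269). Without Pfeiffer siRNA replicate 1, the highest array, that change was 0.27 (adjusted p = 0.0839). Its brightest probe set changed by 0.12 ± 0.06 (adjusted p = 0.226). RPS24, whose messages are spliced in several ways near the end of the coding region, rose by 0.48 ± 0.14 on 1555878_at (adjusted p = 0.0321), and its brightest probe set changed by 0.14 ± 0.08. The groups touched on that dimmer probe set, with 1 siRNA array at 9.20 and 1 control array at 9.21. The calls of RPL38 and RPS24 were each lost in some fits with 1 array left out, among them the fit without Pfeiffer control replicate 3.

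RPL37 fell by 0.27 on 224763_at in Pfeiffer (SE 0.07, adjusted p = 0.0154), and RPS23 fell by 0.29 on 227722_at (SE 0.08, adjusted p = 0.0218), with no overlap of the arrays for either. The brightest probe sets of the 2 genes changed the other way in Pfeiffer, without passing the test. The change was 0.05 for RPL37 (adjusted p = 0.69) and 0.18 for RPS23 (adjusted p = 0.163). The remaining probe sets of RPL37, also dim, changed by -0.15 (224767_at, adjusted p = 0.136) and -0.25 (224766_at, adjusted p = 0.346) in Pfeiffer. In OCI-Ly7 the changes were -0.09 on 224763_at, -0.13 on 224767_at and -0.11 on 224766_at, without passing the test. The call of RPL37 was lost in the fit with only the compared groups (adjusted p = 0.0842). That of RPS23 was lost with a replicate block, and without Pfeiffer control replicate 1, Pfeiffer control replicate 2 or Pfeiffer siRNA replicate 1. RPL22, which is dispensable for bulk translation but needed for T-cell development in mice, had 5 probe sets that did not move alike. The 3 bright ones, at 15.24 to 15.27, changed by 0.10 to 0.12 in Pfeiffer without passing the test. Its dimmest, 221726_at, read 12.87, 12.86 and 12.86 with BCL6 siRNA, against 13.09, 13.04 and 13.11 in control (change -0.22 ± 0.05, adjusted p = 0.00854). The groups did not overlap, and this call held in all 21 other fits tried for it. Between control cells, 221726_at was higher in Pfeiffer (0.12, adjusted p = 0.0455) and 214042_s_at lower (-0.13, adjusted p = 0.0499), which makes RPL22 one of 2 members with probe sets called in opposite directions. The other was RPL37A, with 0.39 on 213459_at (adjusted p = 0.00692) and -0.43 on 214041_x_at (adjusted p = 0.00791), also higher and lower in Pfeiffer.

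**Figure D5:**
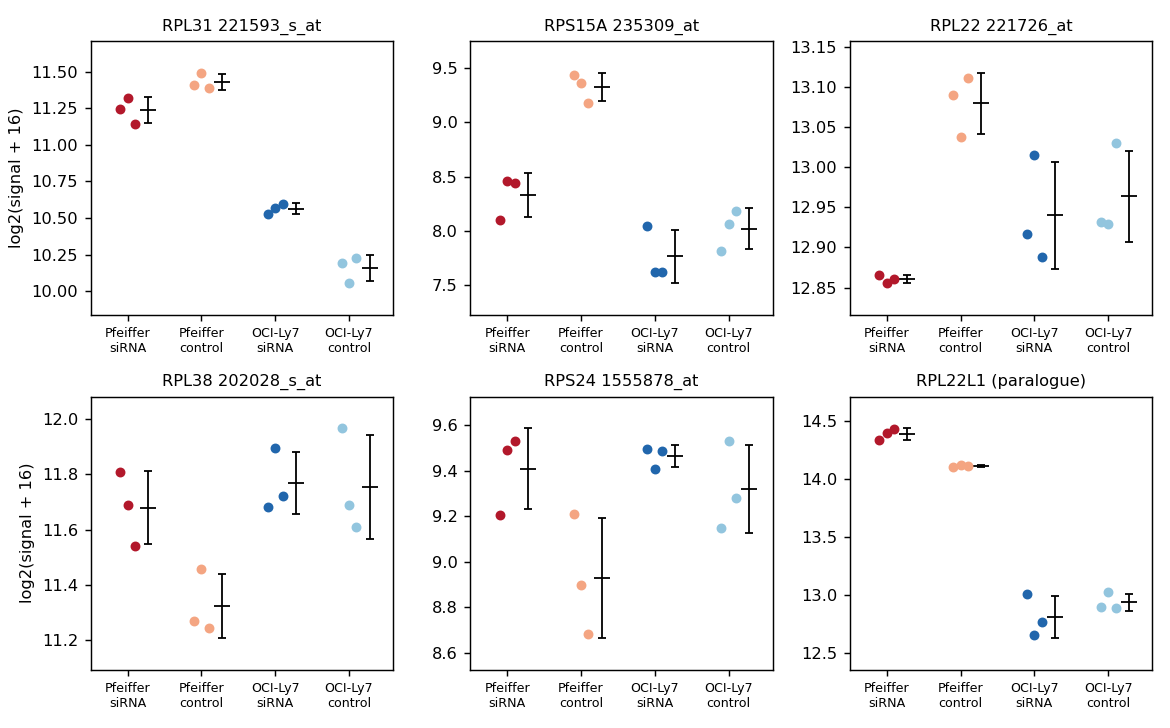
Log2(signal + 16) of 5 dimmer probe sets of ribosomal protein genes and of the paralogue RPL22L1, by group; points are arrays, and the bar beside them is the mean ± SD (n = 3). Vertical axes differ and do not start at 0. The Pfeiffer siRNA arrays of RPS15A and RPL22 lie below all Pfeiffer control arrays, and those of RPL38 and RPL22L1 above them.

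Among 7 tested paralogues outside the rule, RPL22L1 rose in Pfeiffer and was the only one called there (14.3%, against 16.2% of all genes). In mice the Rpl22 protein lowers the level of the message of this paralogue. RPL22L1 read 14.33, 14.39 and 14.43 with BCL6 siRNA in Pfeiffer, against 14.10, 14.11 and 14.11 in control (change 0.28 ± 0.07, adjusted p = 0.0173). In OCI-Ly7 it read 13.01, 12.65 and 12.77 with siRNA, against 12.89, 13.02 and 12.89 in control (change -0.13 ± 0.07, adjusted p = 0.45). The arrays did not overlap in Pfeiffer and overlapped in OCI-Ly7, the difference between the lines was 0.40 ± 0.10 (adjusted p = 0.0236), and control cells differed by 1.17 (higher in Pfeiffer). When each array was centred on the ribosomal protein genes, the change of RPL22L1 in Pfeiffer was 0.13 (adjusted p = 0.431), and without Pfeiffer control replicate 1 it was 0.27 (adjusted p = 0.0543). RPL7L1 rose in OCI-Ly7 (0.22 ± 0.06, adjusted p = 0.0482), a call lost in 20 of 26 other fits. It was the only paralogue called in that line (14.3%, against 2.68% of all genes).

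Other genes of the translation machinery were taken from fixed lists. One list joined translation factors with TOP messages and associated genes, such as HNRNPA1, NAP1L1 and BTF3. Of its 15 tested genes, 0 passed the test in Pfeiffer and 0 in OCI-Ly7, against 16.2% and 2.68% of all genes. Their medians were 0.06 and 0.04. At an unadjusted p under 0.05, 1 was lower in Pfeiffer, against 1472 of all 9888 genes. In OCI-Ly7 0 passed at that level, against 937 higher and 595 lower among all genes. Between control cells 8 of them (53.3%) differed (5 higher and 3 lower in Pfeiffer), against 79.6% of all genes. FAU, whose product is cut to release a ribosomal protein of the small subunit, changed by 0.11 in Pfeiffer and by 0.06 in OCI-Ly7 without passing the test.

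Of 27 tested genes of ribosome assembly, 1 rose and 1 fell in Pfeiffer (7.41%, against 16.2% of all genes). MRTO4, which acts on the nascent stalk, rose (0.45 ± 0.11, adjusted p = 0.0107). NOB1, the nuclease that matures the small-subunit RNA, fell by 0.28 (SE 0.07, adjusted p = 0.0154). The call of NOB1 was lost without Pfeiffer control replicate 3 or Pfeiffer siRNA replicate 1. In OCI-Ly7 0 passed the test, against 2.68% of all genes. At an unadjusted p under 0.05, 4 were higher and 0 lower there, against 9.48% of all genes that were higher. Between control cells 19 were higher and 4 lower in Pfeiffer (85.2%, against 79.6% of all genes), with a median difference of 0.91, against -0.10 for the ribosomal protein genes and 0.07 over all genes. Of 75 mitochondrial ribosomal protein genes 54 were higher and 6 lower (80%), with a median of 0.46. MRPL22 fell in both lines, by 0.29 in Pfeiffer (SE 0.05, adjusted p = 0.00147) and by 0.40 in OCI-Ly7 (SE 0.05, adjusted p = 0.000729). In Pfeiffer 3 mitochondrial genes rose and 6 fell (12%, against 16.2% of all genes), among them MRPL39 (0.23), MRPS18B (0.26) and MRPL1 (-0.35 ± 0.06, adjusted p = 0.00173). MRPL39 turned to -0.03 as the mean of its probe sets and to -0.30 without _x_at and _s_at probe sets, neither passing the test. The call of MRPS18B was lost without Pfeiffer control replicate 1, Pfeiffer control replicate 2 or Pfeiffer siRNA replicate 2.

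Among 20 tested genes of translation initiation and its control, 2 rose and 1 fell in Pfeiffer (15%, against 16.2% of all genes). In OCI-Ly7 1 rose and 1 fell (10%, against 2.68%). EIF4G2, an initiation factor used for cap-independent starts, fell by 0.61 in OCI-Ly7 (SE 0.06, adjusted p = 0.000102). MAX, the partner of MYC, fell by 0.37 in Pfeiffer (SE 0.07, adjusted p = 0.00148). EIF4EBP2, a brake on cap-dependent initiation, rose by 0.26 ± 0.06 in Pfeiffer (adjusted p = 0.00942). EIF5 rose in both lines, by 0.21 ± 0.05 in Pfeiffer (adjusted p = 0.0153) and by 0.26 ± 0.05 in OCI-Ly7 (adjusted p = 0.0212). On other probe sets the values differed: MAX changed by 0.01 and EIF4EBP2 by -0.16 without _x_at and _s_at probe sets, and EIF4G2 by -0.30 as the mean of its probe sets, all without passing the test. EIF5 without _x_at and _s_at probe sets changed by 0.21 in Pfeiffer (adjusted p = 0.576) and by 0.06 in OCI-Ly7 (adjusted p = 0.945), and as the mean of its probe sets by 0.17 in Pfeiffer (adjusted p = 0.146) and 0.21 in OCI-Ly7 (adjusted p = 0.181). The call of EIF5 in each line was also lost in some fits with 1 array left out, in Pfeiffer without control replicate 3 or siRNA replicate 1 and in OCI-Ly7 in 4 of them.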

How the data were processed

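The authors deposited log2 signals of 54675 probe sets, made with MAS5 and affy per the submitters' processing notes, with versions not given in the sources used here. On the linear scale each array had a mean of 500 after trimming 2% at either end, so the deposited signals were already scaled per array and were not normalized further. They were turned into log2(signal + 16). Of the probe sets, 41091 were listed for exactly 1 symbol and used, 1801 for several. Platform annotation named the genes, and the gene identifiers of 41037 probe sets matched RefSeq (GRCh38.p14), which changed 0 symbols. The upper 0.5 of genes by the higher of both line means was tested (9888 genes). The test was limma (eBayes with trend after lmFit), two-sided, on 12 arrays with 4 group means and 8 residual degrees of freedom. Benjamini-Hochberg adjustment ran over all tested genes, or over 17659 probe sets in the probe set fit. SE is limma's. After the real fits, the same fit was run on simulated arrays with levels and spread taken from the real fit.

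Members, lists and tests were chosen with earlier results of these data known. Named were called members, those with the highest and lowest signal, those with opposite probe sets, RPLP0, RPLP1, RPLP2, RPSA, RPS6, RPL5, RPL10, RPL11, RPS19, RPS14, RPS15, RPL22 and RPL41, BCL6, and up to 4 called genes per list and comparison. RPL36, RPS28, RPS29, RPS4X, RPL30, RPL35 and RPL23A, and the dimmer probe sets, were named after their values were seen. Precision is limited by the number of arrays. R 4.3.3, limma 3.58.1, Python 3.11.15, numpy 2.4.6, pandas 2.3.3 and matplotlib 3.10.9 were used.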

Additional observations from a re-analysis of the deposited data

Results flagged for a closer look

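The response to BCL6 siRNA differed between the lines for 2 dimmer probe sets of ribosomal protein genes, by limma's test of Pfeiffer change minus OCI-Ly7 change. These were 2 of 91 member probe sets in that fit, against 7.72% of all probe sets. The difference was -0.60 for RPL31 (probe set 221593_s_at), and it held in all 20 other fits tried. It was -0.30 for RPL22 (214042_s_at), with changes of -0.18 in Pfeiffer and 0.12 in OCI-Ly7, and that call was lost in 12 of 20 other fits. The same test passed for BCL6 (-0.54), for the paralogues RPL22L1 (0.40) and RPL7L1 (-0.28), for the initiation factor gene EIF4G2 (0.49) and for MAX (-0.37). It also passed for the mitochondrial ribosomal protein genes MRPL1 (-0.37) and MRPS33 (-0.28). Of these, BCL6 kept its call in all 26 other fits, while the call was lost in 6 for RPL22L1, in 17 of 25 for RPL7L1, in 2 for EIF4G2, in 8 for MAX and in 5 for MRPL1. Other fits of MRPS33 are not given here. The test passed for 28.6% of the tested paralogues, 10% of the genes of translation initiation and its control, and 2.67% of the mitochondrial ribosomal protein genes. Of all tested genes 8.8% passed.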

How the results depend on the processing

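Alternatives were other scalings, pseudocounts of 1 and 64, other filters, other probe sets per gene, limma with array weights or without a trend, a replicate block, only the compared groups, and each array left out. Calls of members in Pfeiffer, 0 in the fit used, were 1 of 49 in the upper 0.25 of genes (RPL35), against 27.4% of all genes there. They were 3 of 51 with the mean of all probe sets (RPL38, RPS10 and RPS24), against 10.2% of all genes. Without _x_at and _s_at probe sets they were 3 of 29 (1 higher and 2 lower), against 13.6%. On the second brightest probe sets they were 4 of 51, against 16.3%. With second probe sets, RPL31 alone was called in OCI-Ly7 (1, against 2.7% of all genes) and for the difference between the lines (1, against 8.8%). Without a trend RPLP2 was called for that difference (1, against 6.93%). The median change in Pfeiffer was 0.005 under quantile normalization, which fixes the bright end by construction, 0.08 under cyclic loess and 0.14 with arrays centred on tested genes. Between control cells the 8 calls became 20 of 51 under quantile normalization and 49 of 51 under cyclic loess, against 80.2% and 80.5% of all genes. They became 15 with the mean of all probe sets and 15 with second probe sets, against 73% and 79.6%. With arrays centred on the members' median, a setting chosen after seeing the data, they were 13 (9 higher and 4 lower), against 75.9%. The median difference was -0.28 under cyclic loess and 0.0034 without _x_at and _s_at probe sets. RPLP2 reversed to 0.44 on its only probe set of another kind. MRPL39, called higher in Pfeiffer (0.23), reversed to -0.032 as a mean of probe sets and to -0.30 without _x_at and _s_at, where EIF4EBP2 reversed to -0.16 (0.26 in the fit used) and MAX to 0.013 (-0.37 in the fit used). The cause was not tested, except that the last-named settings read other probe sets.

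Replicate numbers did not pair the arrays (correlations of same-numbered deviations were -0.08 to 0.08), and the fit with the replicate block called 2 members in Pfeiffer, RPL23A and RPL30, and 14.1% of all genes. With 1 array left out, calls ranged from 0 to 3 in Pfeiffer (3 without Pfeiffer control replicate 3, against 11.4% of all genes). They were 0 in OCI-Ly7 and for the difference. Between control cells they ranged from 4 to 16, with 16 without Pfeiffer control replicate 3 (against 76.8% of all genes). There were 4 without Pfeiffer control replicate 2 (77%), and 5 without Pfeiffer control replicate 1 (76.9%) or OCI-Ly7 control replicate 3 (77.5%). Medians ranged from 0.10 to 0.18 in Pfeiffer, from -0.001 to 0.10 in OCI-Ly7, from 0.03 to 0.14 for the difference and from -0.15 to -0.05 between control cells.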
